A study of Mus musculus with 77 samples.

Results

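Blood miRNA profiles of undefeated mice were compared between the inbred strains C57BL/6Crl (B6) and DBA/2Crl (D2). These were the control mice of a chronic social defeat experiment. They were males, 8 weeks old at dissection, housed with a plexiglass divider between them and another mouse, which was exchanged daily and could not be touched. Trunk blood was sequenced as a small RNA library from each mouse, and the blood mRNA of the same mice was sequenced as well. The defeated mice of the experiment were sorted into susceptible and resilient animals by their social avoidance, and here they served to estimate the spread and, for the susceptible mice, to repeat the strain comparison.

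By the column names of the blood miRNA table, 10 libraries of the 25 blood miRNA libraries and of the 77 samples of the series came from undefeated mice, 5 from each strain. For mouse ED4_15 the column name says control but the sample label says susceptible, and for mouse ED4_1 it is the other way round. Both were left out of the main comparison, which set 5 B6 against 4 D2 controls. Values by library are listed in the order of B6 replicates 1 to 5 and D2 replicates 1, 3, 4 and 5, where ED4_1 is D2 replicate 2. All 299 miRNAs of the table were members. The strain of these 2 mice was the same in both sources. They had 0 reads of miR-7688-5p and of miR-7092-5p, as the 4 D2 controls did, and 71 (ED4_1) and 84 (ED4_15) reads of miR-1258-3p, beside 64 to 77 in those controls.

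A miRNA is a short RNA that guides an Argonaute protein to messenger RNAs, mostly through pairing of its seed, bases 2 to 8 from the 5′ end, with sites in the 3′ UTR. Paired targets are translated less and degraded faster. miRNAs with the same seed can share targets, and miRNAs cut from the same transcript, or from an intron of a host gene, are often made together. In whole blood most miRNA comes from red cells and platelets, with leukocyte miRNAs at lower levels, and some tissue miRNAs circulate outside cells.

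The recovered depth of the 9 controls was 7392890 to 9038979 miRNA reads per library, with 2 to 8 of the 299 miRNAs at 0 reads in a library. In the table, 254 names ended in 5p, 17 in 3p and 28 in neither, so most 3p arms were not analysed here. The 10 most abundant miRNAs took 82.4 to 87.5% of the reads. miR-451a, a red cell miRNA that Argonaute 2 cuts without Dicer, alone took 26.2 to 37.7%.

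The mature sequences of miRNAs that differed between the strains follow, with some of their relatives that were not called, from RefSeq on GRCm38.p6 and with the seed in capitals. The first set shows miRNAs that were detected in control blood of 1 strain and not in that of the other, and miR-31-5p.
miR-7688-5p: uAGCUGGGcaugaucugaugagc
miR-7092-5p: aAAGGCAAacucacagaaucauu
miR-12186-5p: aGGGACUCaggccucuguugg
miR-31-5p: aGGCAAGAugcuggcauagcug
The next set shares AGCAGC in the seed and is shown because its members differed between the strains in opposite directions.
miR-497a-5p: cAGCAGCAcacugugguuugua
miR-195a-5p: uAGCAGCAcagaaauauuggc
miR-15a-5p: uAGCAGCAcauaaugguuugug
miR-15b-5p: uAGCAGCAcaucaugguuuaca
miR-16-5p: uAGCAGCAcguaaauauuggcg
miR-322-5p: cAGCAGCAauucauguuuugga
miR-503-5p: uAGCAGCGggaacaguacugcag
The last set shows miRNAs of shared seed of which only 1 was called in controls, and the pair miR-192-5p and miR-194-5p, which are neighbours in the genome.
miR-146a-5p: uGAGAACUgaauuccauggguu
miR-146b-5p: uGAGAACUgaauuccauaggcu
miR-30a-5p: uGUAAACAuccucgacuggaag
miR-30c-5p: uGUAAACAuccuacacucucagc
miR-30e-5p: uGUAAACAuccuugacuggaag
miR-192-5p: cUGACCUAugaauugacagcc
miR-194-5p: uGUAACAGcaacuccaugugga

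Between B6 and D2 controls 51 of the 299 miRNAs differed, 17.1% of those tested. Of these, 23 (7.69%) were higher in B6 and 28 (9.36%) were higher in D2. A miRNA was called at an adjusted p under 0.05 (limma, Benjamini-Hochberg over all 299) and a fold of at least 1.2, and differences are given as B6 minus D2 on the log2 scale. At an unadjusted p under 0.05 and the same fold, 83 miRNAs (27.8%) passed. In 42 of the 51 called miRNAs, and in 55 of all 299 (18.4%), the 5 B6 and the 4 D2 values did not overlap. The median difference over all 299 was 0.11, and scaling the recovered reads to their total moved the differences by a median of -0.14, with 15 miRNAs then called higher in B6 and 33 higher in D2. That split was 17 and 32 with median-of-ratios scaling, 16 and 35 on log2(CPM + 1), and 40 and 29 with sample quality weights. With ED4_15 added to the D2 controls 45 miRNAs were called, 43 of them among the 51, and with ED4_1 added in its place 53 were called, 48 of them among the 51. A fit of the control groups alone called 45, 42 of them among the 51. All B6 mice carried sample titles that begin with EC and all D2 mice titles that begin with ED, so strain cannot be told apart from whatever else that prefix stands for. The prefix is followed by a number, and the labels used here do not say what it stands for. It was 3 for 2 and 4 for 3 of the B6 controls, whereas it was 3 for 1 and 6 for 3 of the D2 controls, and no B6 mouse carried a 6. With that number as a further term in the fit of the 23 libraries, an alternative chosen after the data were seen, 32 miRNAs were called, 13 higher in B6 and 19 higher in D2. Of these, 27 were among the 51, and all 51 kept their direction. The 6 was carried by D2 mice alone, 3 controls and 1 susceptible mouse, so few mice set this term. Whether the number accounts for any of the differences was not tested.

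**Figure D1:**
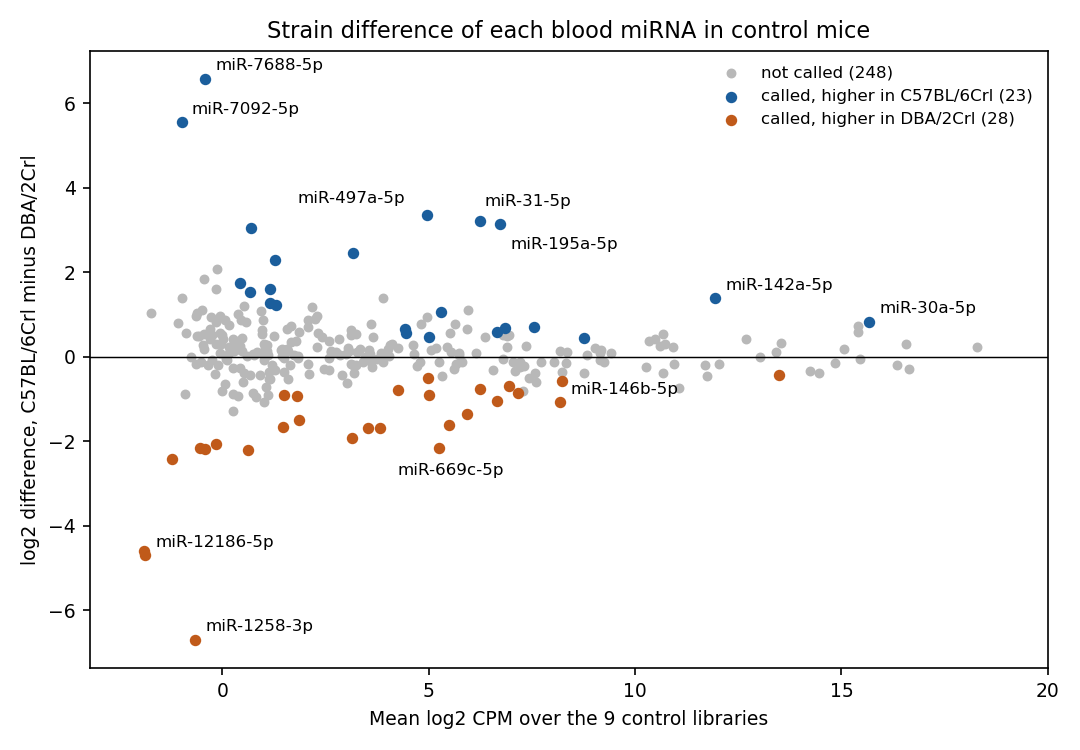
Strain difference of each of the 299 miRNAs (vertical axis, log2, B6 minus D2) against its mean level over the 9 control libraries (horizontal axis, log2 CPM). Called miRNAs are coloured, 23 higher in B6 and 28 higher in D2, and the differences beyond 4 log2 units belong to miRNAs of low level that had 0 or almost no reads in 1 strain.

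miR-7688-5p and miR-7092-5p were read in B6 blood and not in D2 blood. miR-7688-5p, on chr10:93433107-93433129 (plus strand), had 37, 54, 33, 44 and 54 reads in the 5 B6 controls and 0 reads in each of the 4 D2 controls. With 3 reads over the D2 group as the floor, it was at least 64.2-fold higher in B6 (adjusted p = 2.88e-16, limma). miR-7092-5p lies on chrX:74317367-74317389 (plus strand) in an intron of Fam50a, and it had 26, 17, 17, 17 and 32 reads in B6 against 0 in each D2 control, at least 31.5-fold higher by the same floor (adjusted p = 1.66e-11, limma). Over all 25 blood libraries, defeated mice included, each of the 15 B6 libraries held at least 33 reads of miR-7688-5p and 11 of miR-7092-5p, and none of the 10 D2 libraries held a read of either. Both miRNAs thus passed the authors' filter, at least 1 CPM in at least 6 samples, through B6 libraries alone. Their p-values rest partly on that selection and on the 0.5 reads added to each count. The Fam50a mRNA itself differed by 0.07 ± 0.19 (SE) between the strains (adjusted p = 0.863, limma).

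The reverse pattern was seen for miR-1258-3p and both arms of miR-12186. miR-1258-3p had 69, 64, 69 and 77 reads in the D2 controls and 1 read in 1 of the 5 B6 controls, with 0 in the rest. The ratio of D2 to B6 was 321.8, with an exact 95% counting interval of 57.3 to 12755, and the adjusted p was 5.55e-09 (limma). miR-12186-5p had 20, 17, 9 and 11 reads in D2 and 0 reads in every B6 control, at least 21.9-fold higher in D2 (adjusted p = 2.58e-05). miR-12186-3p had 11, 18, 13 and 10 reads in D2 and likewise 0 in B6, at least 19.99-fold higher in D2 (adjusted p = 4.12e-07). Among defeated B6 mice a few reads appeared, so that over 15 B6 libraries miR-1258-3p was read in 5, with at most 5 reads, and miR-12186-5p in 2, with at most 3. No B6 library reached 1 CPM for miR-1258-3p or either arm of miR-12186. They passed the authors' filter through D2 libraries alone, and their p-values rest partly on that selection and on the 0.5 reads added to each count. miR-12186-5p lies on chr15:83341838-83341858 (minus strand) in an intron of Arfgap3, which encodes a GTPase-activating protein of the Golgi. The mRNA of Arfgap3 went the other way: its log2 CPM was 4.27 ± 0.20 (SD, n = 5) in B6 and 3.35 ± 0.33 (SD, n = 4) in D2 (adjusted p = 0.0238, limma), and that call was lost without B6 replicate 5 or without D2 replicate 1, 3 or 4. These intervals and floors cover counting error only, since reads are not independent molecules. Reads of both strains were matched to the same reference, and for any one miRNA a change in its sequence and a change in its level cannot be told apart here.

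**Figure D2:**
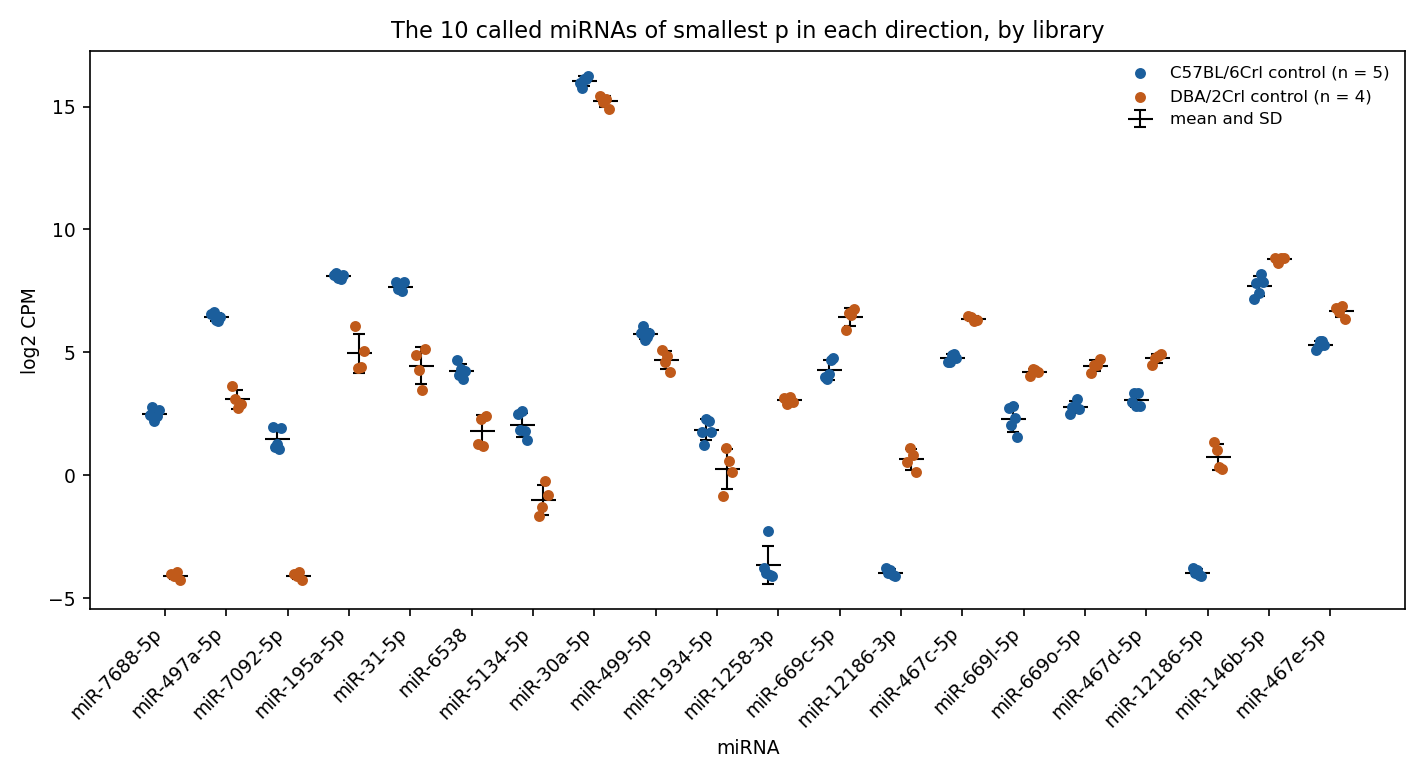
Level of the 10 called miRNAs of smallest p in each direction among those without overlap (horizontal axis) in each control library (vertical axis, log2 CPM), with mean and SD, for 5 B6 and 4 D2 mice. Values near -4 stand for 0 reads, as in D2 for miR-7688-5p and in B6 for miR-12186-3p.

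Among miRNAs present in both strains, the largest differences belonged to miR-497a-5p, miR-31-5p and miR-195a-5p. miR-497a-5p and miR-195a-5p lie in 1 cluster on chromosome 11, at 70234730 to 70234751 and 70235062 to 70235082 on the plus strand, and both restrain cell cycle genes. The log2 CPM of miR-497a-5p was 6.58, 6.65, 6.31, 6.26 and 6.43 in B6 and 3.63, 3.11, 2.74 and 2.89 in D2. Every B6 library was thus far above every D2 library, a difference of 3.35 ± 0.17 (SE), or 10.2-fold (adjusted p = 2.2e-13, limma). The log2 CPM of miR-195a-5p was 8.16, 8.24, 8.05, 8.00 and 8.13 in B6 and 6.07, 4.38, 4.39 and 5.04 in D2. The B6 values lay close together and the D2 values were spread, with replicate 1 the highest, and the difference was 3.14 ± 0.24 (SE), or 8.84-fold (adjusted p = 3.14e-10, limma).

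The other miRNAs with AGCAGC in the seed did not follow. miR-322-5p, of the same seed, and miR-503-5p, whose seed is AGCAGCG and not AGCAGCA, were higher in D2. They share a cluster on the X chromosome (53054027 to 53054327, minus strand) and are known for acting in muscle and cell cycle exit. The log2 CPM of miR-322-5p was 5.78, 6.03, 5.85, 6.10 and 5.77 in B6 and 6.61, 6.62, 6.93 and 6.51 in D2, a difference of -0.76 ± 0.19 (SE, adjusted p = 0.00491, limma). For miR-503-5p the values were 5.97, 6.04, 6.39, 6.49 and 6.00 in B6 and 7.00, 7.26, 7.56 and 7.12 in D2, a difference of -1.06 ± 0.19 (SE, adjusted p = 0.000193, limma). For neither did the strains overlap, but with the title number as a term miR-322-5p was not called (-0.71, adjusted p = 0.0803). miR-542-5p, of the same cluster, was also called higher in D2, with a difference of -0.94 (adjusted p = 0.0455, limma, and 0.0951 with the title number), and miR-351-5p differed by -0.96 (adjusted p = 0.120). The 3 remaining members, miR-15a-5p, miR-15b-5p and miR-16-5p, were not called in controls, with differences of 0.42, 0.18 and -0.13. These were the more abundant ones, with a mean log2 CPM over the 9 controls of 15.1 for miR-15b-5p, 12.7 for miR-15a-5p and 9.23 for miR-16-5p, against 4.96 for miR-497a-5p and 6.72 for miR-195a-5p. Counted from the 5′ end, miR-195a-5p and miR-497a-5p have 12 of 21 bases in common, and miR-322-5p and miR-503-5p 11 of 22.

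**Figure D3:**
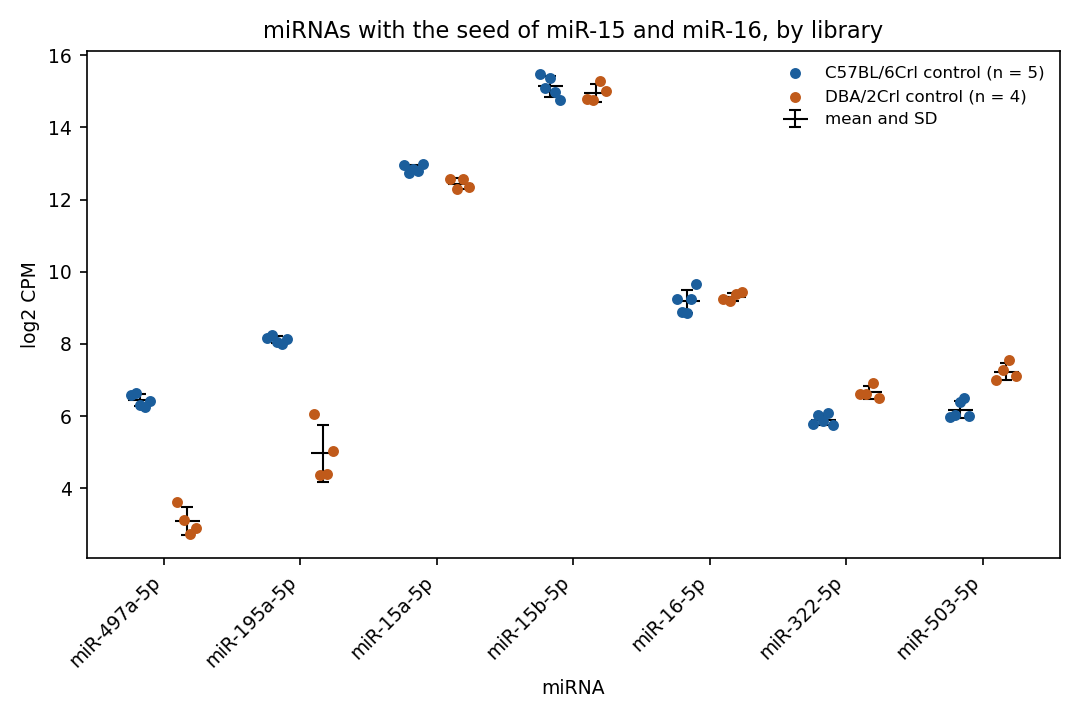
Level of the 7 miRNAs with AGCAGC in the seed (horizontal axis) in each control library (vertical axis, log2 CPM), with mean and SD, for 5 B6 and 4 D2 mice. The first pair of miRNAs sits higher in B6, the last pair sits lower in B6, and the 3 between them differ little.

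miR-31-5p, which lies on chr4:88910614-88910635 (minus strand) in an exon of a long non-coding RNA gene and is known from epithelia and T cells, had a log2 CPM of 7.89, 7.57, 7.57, 7.51 and 7.85 in B6. In D2 it was 4.91, 4.31, 3.47 and 5.14, below every B6 value. The difference was 3.22 ± 0.25 (SE), or 9.32-fold (adjusted p = 3.21e-10, limma). At lower levels, miR-6538, in an intron of the ubiquitin ligase gene Rnf144a, was higher in B6 by 2.44 ± 0.28 (SE, adjusted p = 4.12e-07, limma). miR-5134-5p was higher by 3.05 ± 0.51 (SE, adjusted p = 8.9e-05), resting on 23 to 44 reads in B6 and 2 to 6 in D2. miR-1934-5p was higher by 1.60 ± 0.33 (SE), with 18 to 38 reads in B6 and 4 to 18 in D2.

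Of the 10 most abundant miRNAs miR-30a-5p was called. It had a log2 CPM of 15.95, 15.76, 16.11, 16.14 and 16.24 in B6 and 15.44, 15.18, 15.32 and 14.90 in D2, so that even the lowest B6 library was above the highest D2 library, and the difference was 0.83 ± 0.15 (SE, adjusted p = 0.000292, limma). With the title number as a term the difference was 0.39 ± 0.17 (SE) and was not called (adjusted p = 0.159, limma). miR-30a-5p acts on, among others, autophagy and cytoskeleton genes. miR-30c-5p and miR-30e-5p have the same seed and differed by 0.14 (adjusted p = 0.723) and 0.58 (adjusted p = 0.0871). miR-30b-5p and miR-30d-5p, of the same family, differed by 0.25 and -0.16. They had no RefSeq entry here, so their seeds were not compared. The other 9 of the 10 most abundant miRNAs (miR-451a, let-7i-5p, miR-21a-5p, let-7g-5p, miR-93-5p, miR-30e-5p, miR-144-5p, miR-15b-5p and miR-30d-5p) lay between -0.29 and 0.73 with adjusted p from 0.0871 up. Some of them were called under an alternative: miR-30e-5p without D2 replicate 1 (0.71) or 4 (0.72), miR-144-5p without B6 replicate 2 (0.87) or D2 replicate 4 (0.93) and with sample quality weights (0.64), miR-21a-5p (0.30) and miR-93-5p (-0.47) with quantile normalization, let-7g-5p on log2(CPM + 1) (-0.34), and let-7i-5p with the title number (-0.70). A p that misses the threshold does not show equal levels.

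miR-146b-5p, which restrains NF-kB signalling through TRAF6 and IRAK1, was higher in D2. Its log2 CPM was 7.18, 7.84, 7.43, 8.19 and 7.88 in B6 and 8.85, 8.63, 8.84 and 8.85 in D2, a difference of -1.08 ± 0.17 (SE, adjusted p = 4.57e-05, limma), and the strains did not overlap. Its seed twin miR-146a-5p has 20 of the 22 bases in common and differed by -0.22 ± 0.27 (SE, adjusted p = 0.663). The pair comes from separate genes, miR-146a-5p on chromosome 11 and miR-146b-5p on chromosome 19.

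A further block of D2-higher miRNAs came from 1 locus. The Sfmbt2 intron cluster, a run of miR-297, miR-466, miR-467 and miR-669 genes within Sfmbt2, a Polycomb group gene imprinted in extraembryonic tissue, had 11 measured members. All 11 were called higher in D2, against 9.36% of all 299 called in that direction, with a median of -1.91 and a range of -2.43 to -1.37. By hairpin gene symbol all 11 lie on the plus strand inside Sfmbt2 (chr2:10370510-10595253, GENCODE). Under the alternatives that held all 11, the median ranged from -2.15 to -1.48 and 9 to 11 were called, with 9 without D2 replicate 3 or with the title number as a term and 10 with ED4_15 among the D2 controls.

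miR-669c-5p, the member of smallest p, had a log2 CPM of 4.00, 3.93, 4.11, 4.70 and 4.76 in B6 and 5.92, 6.59, 6.51 and 6.79 in D2. The strains did not overlap and the difference was -2.15 ± 0.24 (SE, adjusted p = 2.76e-07, limma). miR-467e-5p was the most abundant, with 5.12 to 5.48 in B6 and 6.35 to 6.90 in D2, a difference of -1.37 ± 0.24 (SE, adjusted p = 0.000158). miR-467c-5p (-1.61), miR-467d-5p (-1.69), miR-669l-5p (-1.91) and miR-669o-5p (-1.68) each had adjusted p below 0.0001. miR-297b-5p, miR-466h-5p, miR-669f-5p and miR-669h-5p rested on few reads, with totals in B6 libraries of at most 8 reads and, for miR-297b-5p, 1, 1, 1, 5 and 0. Such counts are near or below 1 CPM, so these members may have passed the authors' filter largely through D2 libraries. Their calls, and with them the count and median of the cluster, rest partly on that selection and on the 0.5 reads added to each count. Since the miRNAs of the cluster are near copies of each other, the reads of 1 member can be counted for another, and how the counting split them was not tested.

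The mRNA of Sfmbt2 moved in the same direction in the same mice. Its log2 CPM was 1.24, 1.095, 1.73, 2.28 and 1.54 in B6 and 3.29, 3.13, 3.36 and 3.41 in D2, a difference of -1.72 ± 0.23 (SE, adjusted p = 8.42e-06, limma), against 16.8% of the 13084 blood mRNAs called in either direction. This call held under every alternative run on the mRNA. Among 18 same-strand host genes of called miRNAs, Sfmbt2 included, 3 were called: Sfmbt2, Arfgap3 and Srebf2. That share is near the 16.8% of all blood mRNAs called, and Arfgap3 went the opposite way to its miRNA. Srebf2, the sterol regulator whose intron holds miR-33-5p, a miRNA that limits cholesterol efflux, was higher in B6 by 0.53 ± 0.16 (SE, adjusted p = 0.0248), and miR-33-5p was higher in B6 by 2.29 ± 0.56 (SE, adjusted p = 0.00471). In susceptible mice Sfmbt2 differed by -0.62 (adjusted p = 0.0874). The number of hosts called was 1 without D2 replicate 3 or 4 and 5 without D2 replicate 5, and the Srebf2 call was lost without B6 replicate 1 or 3 and without D2 replicate 3 or 4. With the title number as a term Sfmbt2 was the 1 host called (-1.71, adjusted p = 0.00204), and miR-33-5p was not called (1.92, adjusted p = 0.137). Over 147 pairs of a miRNA with a RefSeq position and a same-strand host gene, Pearson's r of the strain differences was 0.0614 and Spearman's rho 0.132. This is a description across miRNAs, several of which share a host. The 11 Sfmbt2 cluster members had no RefSeq position, so Sfmbt2 was not among these pairs.

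Lists of cell and tissue miRNAs gave few calls each, beside 7.69% of all 299 miRNAs called higher in B6 and 9.36% higher in D2. Of 7 erythroid miRNAs 4 were measured and none was called, with differences of 0.24 for miR-451a, 0.73 for miR-144-5p, 0.04 for miR-486a-5p and -0.37 for miR-486b-5p (median 0.14). miR-142a-5p, found in all blood lineages, was called higher in B6. Its log2 CPM was 13.08, 11.76, 12.32, 12.78 and 12.82 in B6 and 11.74, 11.64, 11.66 and 9.65 in D2, so that the lowest B6 library was 0.02 above the highest D2 library. The difference of 1.38 ± 0.39 (SE, adjusted p = 0.0156, limma) fell to 0.87 and lost its call (adjusted p = 0.103) without D2 replicate 5, and its call was also lost with the title number (1.26, adjusted p = 0.166). In a fit of the control groups alone miR-142a-5p was not called either (adjusted p = 0.0529, limma). Replicate 5 was the D2 control with the low value, which was also the lowest of the 9 for miR-144-5p (13.72) and miR-30e-5p (14.01).

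Of the 6 measured myeloid and platelet miRNAs 2 were called, both higher in D2, where 9.36% of all 299 were so called. They were miR-146b-5p, above, and miR-223-5p, the less abundant strand of a granulocyte miRNA, with a difference of -0.80 ± 0.25 (SE, adjusted p = 0.0285, limma). The latter call was lost without B6 replicate 1 or 2, without D2 replicate 1, 3 or 5, and with ED4_15 added. Of the 6 lymphoid miRNAs miR-181b-5p was called, also higher in D2 (-0.92 ± 0.26, SE, adjusted p = 0.0169) but not so called without B6 replicate 5 or D2 replicate 4 or with the title number, while miR-150-5p, a B and T cell miRNA, differed by -0.39 (adjusted p = 0.662) and miR-155-5p by -0.45 (adjusted p = 0.356). The median was -0.34 for the myeloid list and -0.42 for the lymphoid list, beside 0.11 for all miRNAs. In the mRNA of the same mice, the platelet markers were lower in B6, 4 of 10 called higher in D2 (Ppbp, Gp9, Gp1bb and Treml1; 9.98% of all genes were so called) and none in the other direction. The log2 of their summed CPM was 11.0 to 12.9 in B6 and 13.2 to 14.1 in D2, which did not overlap. The B cell markers were higher in B6, 7 of 10 called (among them Cd22; 6.84% of all genes were so called), with sums of 9.70 to 10.2 against 8.97 to 9.41. Without D2 replicate 3 these counts were 2 and 3 of 10, with ED4_1 added 4 and 3, and without B6 replicate 2 they were 2 and 4, and without D2 replicate 5 they were 4 and 4. With the title number as a term they were 4 and 1. Of the neutrophil markers 2 of 10 were called higher in D2, of the NK cell markers 3 of 10 higher in B6, of the monocyte markers none, and of the T cell and the erythroid markers 1 each way, and the sums of these 5 lists overlapped between the strains. The erythroid sums were 16.3 to 17.1 in B6 and 16.01 to 16.8 in D2, the highest of the marker lists. The sums of the 3 measured brain markers did not overlap, at 6.69 to 7.23 in B6 and 7.57 to 8.00 in D2. Cell number and RNA per cell cannot be told apart in bulk blood, and the part of blood composition in the miRNA differences was not tested.

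Tissue miRNAs were few in the table, and 7.69% of all 299 miRNAs were called higher in B6. Of 4 liver miRNAs 3 were measured, and miR-192-5p (0.44 ± 0.11, SE, adjusted p = 0.00767) and miR-194-5p (0.71 ± 0.17, SE, adjusted p = 0.00383) were called higher in B6. They are neighbours on chromosome 19, and miR-194-5p has a further copy on chromosome 1. miR-122-5p, the main hepatocyte miRNA, differed by 0.65 (adjusted p = 0.517), and liver marker mRNAs were not analysed here. With the reads scaled to their total miR-192-5p differed by 0.30 and was not called, nor was it with the title number (0.36). miR-499-5p, made from an intron of the myosin gene Myh7b, was the measured member of the muscle list and was higher in B6, with a log2 CPM of 5.78, 6.07, 5.52, 5.65 and 5.79 against 5.11, 4.62, 4.84 and 4.22 (difference 1.06 ± 0.21, SE, adjusted p = 0.000523). The sums of the striated muscle mRNA markers overlapped between the strains, at 3.95 to 6.12 in B6 and 3.27 to 6.45 in D2.

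Families and clusters outside those above held few called members. Over all 299 miRNAs, 7.69% were called higher in B6 and 9.36% higher in D2. Positive differences were found in 59.9% of all 299, with a median of 0.11, or -0.03 with the reads scaled to their total. Of 10 let-7 family members let-7e-5p was called higher in D2 (-0.68 ± 0.22, SE, adjusted p = 0.0315), 9 of 10 had negative differences, and the median was -0.38. let-7e-5p was not called without B6 replicate 1 or 5, without D2 replicate 1, 3 or 5, or with ED4_15 added or the title number as a term. Its call was also lost in a fit of the control groups alone (adjusted p = 0.0779, limma) and with sample quality weights (adjusted p = 0.0672, limma). None of the 12 members of the miR-17 and miR-92 cluster and its paralogs was called. Of the 19 miRNAs of the Dlk1-Dio3 imprinted cluster on chromosome 12, 18 had positive differences with a median of 0.90, but only miR-299a-3p (1.53) and miR-376b-5p (1.73) were called, and neither was called with ED4_1 or with ED4_15 among the controls or with the title number as a term. The number called in that cluster ranged from 0 to 7 as single mice were left out, with 7 without B6 replicate 1, 6 without D2 replicate 1, 3 without B6 replicate 5 and 0 without any other, and it was 10 under sample quality weights. No member was called of the groups of miR-183, miR-34, miR-99, miR-148, miR-23, miR-221, miR-29, miR-26 and miR-103, nor of the miR-500 cluster on the X chromosome. Of the epithelium and islet list miR-205-5p was measured and differed by 0.78 (adjusted p = 0.307), and of the brain list no member was analysed here.

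**Figure D4:**
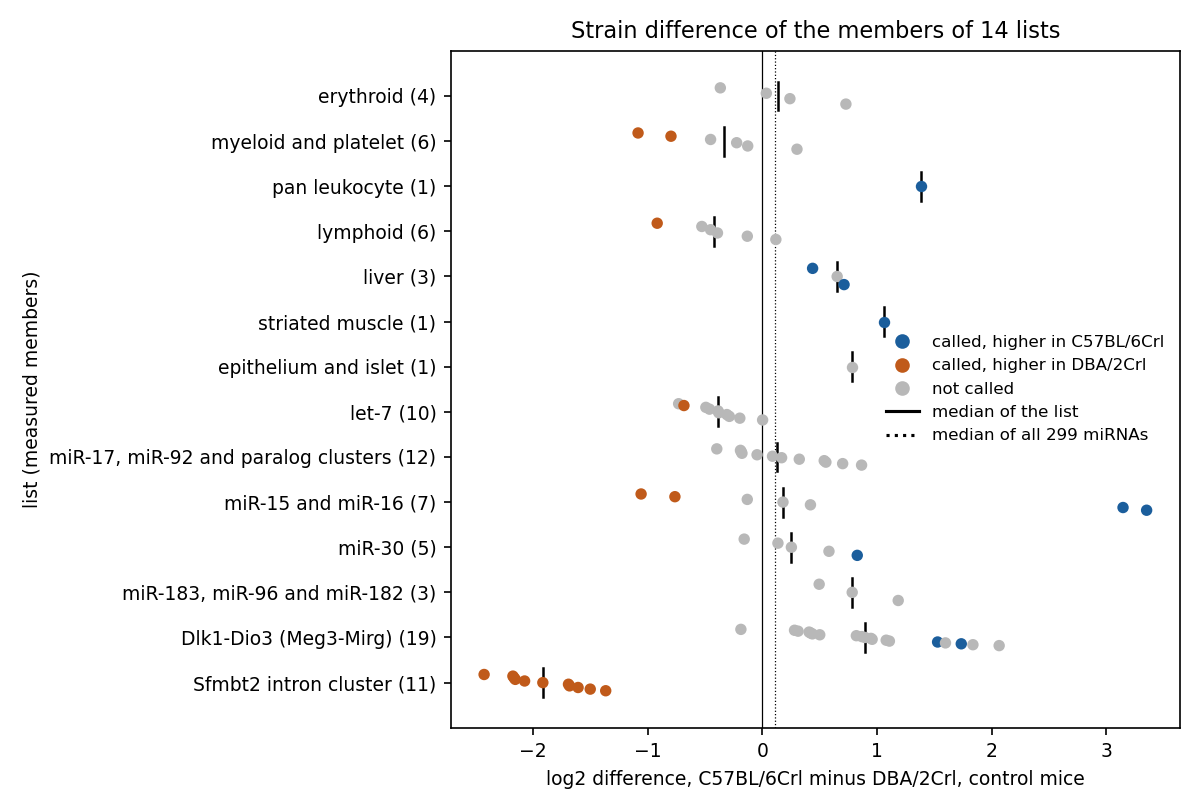
Strain difference of each measured member (points, log2, B6 minus D2) of 14 lists (rows, number of members in parentheses), with the median of the list (solid bar) and of all 299 miRNAs (dotted line). All 11 members of the Sfmbt2 intron cluster lie at -1.37 or below, and the row of miR-15 and miR-16 holds called members at both ends.

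The remaining called miRNAs were outside the lists. Higher in D2 were miR-196b-5p from the Hoxa locus (-0.86, adjusted p = 0.00103), miR-361-5p (-0.58, adjusted p = 0.00207), miR-191-5p (-0.43, adjusted p = 0.0315, at a log2 CPM of about 13.5), miR-7a-5p (-0.90, adjusted p = 0.0169), miR-330-5p, miR-6395 and miR-5129-5p. Higher in B6 were miR-1843b-5p (0.67, adjusted p = 0.00474), miR-301a-5p, miR-331-5p, miR-3068-5p, miR-664-3p, miR-7647-3p and miR-6240. Of these 14 miRNAs miR-196b-5p and miR-5129-5p were also called with the title number as a term. miR-330-5p (-0.52, adjusted p = 0.0315) lost its call in addition without B6 replicate 1, 2 or 5, without D2 replicate 3 or 4, and in a fit of the control groups alone. For 5 hairpins both arms were in the table, and the log ratio of the 5p to the 3p arm was called in none of them (adjusted p of 0.412 to 0.896, limma with the 5 hairpins and no trend, and none at an unadjusted p under 0.05). The smallest p was for miR-664, whose ratio differed by -1.07 ± 0.59 (SE). For miR-12186 (adjusted p = 0.896, limma) both arms had 0 reads in every B6 control. Its B6 ratio was thus set by the 0.5 reads added to each count, and its test cannot show whether the arms differ.

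The comparison was repeated in susceptible mice, 5 B6 against 4 D2, which share no library with the controls. Both contrasts came from the same fit and used its 1 estimate of the spread of each miRNA, so their calls are not fully independent. There 71 miRNAs were called (23.7% of 299), 43 higher in B6 and 28 higher in D2. That split turned to 32 and 41 with median-of-ratios scaling of the recovered reads, so it depends on the scaling. With the title number as a term 63 were called, 59 of them among the 71. In the main fit 33 of the 51 miRNAs called in controls were called in susceptible mice too, which is 64.7% of the control calls and 46.5% of the susceptible calls. All 33 had the same direction, and 47 of the 51 did so. Across the 299 miRNAs the differences in control and in susceptible mice had a Pearson's r of 0.85 and a Spearman's rho of 0.698, as a description.

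**Figure D5:**
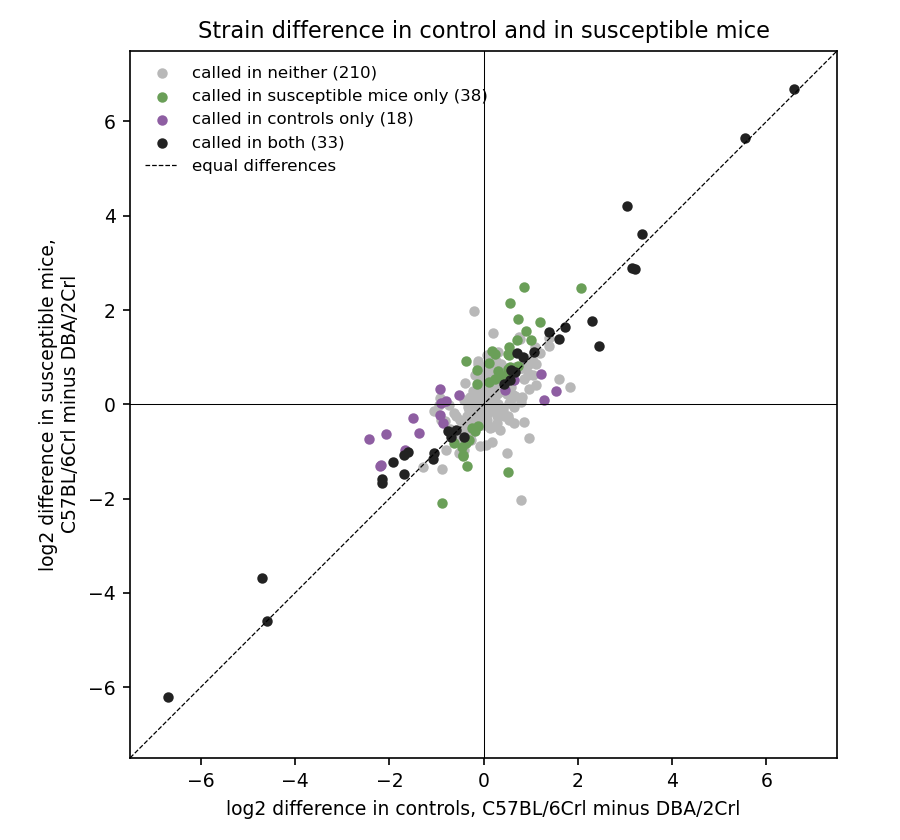
Strain difference in controls (horizontal axis) and in susceptible mice (vertical axis), both log2, B6 minus D2, for each of the 299 miRNAs, coloured by where it was called, with the line of equal differences. The 33 miRNAs called in both lie in the lower left and the upper right, and 38 are called in susceptible mice and 18 in controls alone.

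In susceptible mice the strain difference was 6.69 for miR-7688-5p, 5.64 for miR-7092-5p, 3.62 for miR-497a-5p, 2.90 for miR-195a-5p, 2.86 for miR-31-5p and 0.99 for miR-30a-5p. It was -1.16 for miR-146b-5p and -1.04 for miR-503-5p, and all 8 of these were called there. miR-15a-5p (0.60, adjusted p = 0.0274) and miR-16-5p (0.73, adjusted p = 0.0155) were called in susceptible mice and not in controls, and that contrast was not past the adjusted threshold for any miRNA. In the Sfmbt2 cluster 6 of 11 members were called higher in D2 there, against 9.36% of all 299, with a median of -1.07 beside -1.91 in controls. Over all blood libraries, 15 B6 and 10 D2, 23 of all 299 miRNAs did not overlap between the strains, and all 23 were among the 51 called. Of these, 18 were among the 10 of smallest p in each direction, which were chosen for not overlapping in controls. The libraries counted here include the 9 controls that gave the calls, so this count is not independent of them. No miRNA passed the adjusted threshold for a strain difference that itself differed between control and susceptible mice, and 17 (5.69%) had an unadjusted p under 0.05. The smallest p belonged to let-7j, which differed by -0.39 in controls and by 0.93 in susceptible mice, a difference between these of 1.31 with a 95% interval of 0.53 to 2.10 (adjusted p = 0.366, limma). miR-181b-5p (-0.92 and 0.33), miR-181d-5p (-0.13 and 0.44), miR-330-5p (-0.52 and 0.20) and miR-6538 (2.44 and 1.24) came next at the same adjusted p.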

How the data were processed

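The authors made the libraries with the NEXTflex Small RNA-Seq Kit, trimmed and filtered the reads, matched them to miRBase sequences with miRDeep2 and Bowtie (version 1.1.1), kept miRNAs with at least 1 CPM in at least 6 samples, and deposited log2 CPM values on the voom scale. Blood mRNA was deposited in the same unit. Both strains were matched to the same reference. Every deposited value gave a whole number of reads plus 0.5, within 0.0001 reads. Each library is 1 mouse.

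The deposited values of the 23 blood miRNA libraries with agreeing labels and column names were fitted with limma (version 3.58.1) in R, with 1 mean per group (B6 control, resilient and susceptible, D2 control and susceptible) and a mean-variance trend, and the contrast was B6 control minus D2 control. Adjusted p-values are Benjamini-Hochberg over all 299 miRNAs, or all 13084 genes. The mRNA fit was the same. The number in the sample title was added as a term in an alternative. The fit was also run on simulated counts with known changes. Features of few expected reads were not among those changed, so that run does not cover miRNAs with few reads. Positions came from RefSeq on GRCm38.p6 for 253 of the 299 miRNAs and hosts from GENCODE on GRCm38. The named miRNAs were the 10 of smallest p in each direction among called miRNAs without overlap, the 10 most abundant, the list members, the 5 hairpins with both arms, and the 5 of smallest p for the difference between control and susceptible mice. The miRNAs and the lists were chosen with earlier results of these data known. Some single marker genes of blood mRNA are not reported here.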

Additional observations from a re-analysis of the deposited data

Results flagged for a closer look

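Among 89 groups of 4 or 5 control libraries of the 47 miRNAs examined, 5 had 1 library set apart from the rest of its group by Dixon's test, and chance flags about 1 in 20. All 5 were the lowest of the 4 D2 controls. In D2 replicate 5 the log2 CPM was 9.65 for miR-142a-5p (next value 11.6), 14.01 for miR-30e-5p (next 15.3) and -0.569 for miR-297b-5p (next 0.286). In D2 replicate 4 it was 6.96 for let-7e-5p (next 7.41). In D2 replicate 3 it was 8.63 for miR-146b-5p (next 8.84), still above every B6 control. The cause of these low values was not tested.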

How the results depend on the processing

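The number of miRNAs called between the strains in controls was 51 and lay between 39 and 52 as single control mice were left out, with 39 without D2 replicate 3. It was 24 (12 in each direction) over the 97 miRNAs with a mean log2 CPM of at least 5, where fewer miRNAs were tested. Sample quality weights gave 40 higher in B6 and scaling the reads to their total gave 15, and the cause was not tested. With the number in the sample title as a term, chosen after the data were seen, 32 were called (13 higher in B6), with 7 marker genes and 1 host gene of the mRNA, and 42 miRNAs had an unadjusted p under 0.05 for the difference between control and susceptible mice. Quantile normalization gave 19 higher in B6 and 31 higher in D2. Quantile normalization and total scaling moved the differences by medians of -0.111 and -0.141. Of 977 values of single miRNAs and host genes under the alternatives, 886 kept direction and side of the threshold. Those that changed sign were not called in either fit: miR-15b-5p (-0.0216) and miR-181d-5p (0.028) under quantile normalization, and miR-93-5p (0.015 without D2 replicate 4). miR-93-5p lay between -0.119 and 0.015 as single mice were left out, and quantile normalization moved it from -0.046 to -0.467, where it was called (adjusted p = 0.00287, limma). In susceptible mice 55 to 85 miRNAs were called as single mice were left out. The marker genes called were 13 to 21, and the host genes called 1 to 5, as single control mice were left out. No miRNA was called for the difference between control and susceptible mice under the GEO labels, the column names, the title number or without the trend. No hairpin had both arms at a mean log2 CPM of at least 5, so that alternative of the arm ratio was not run. No paired analysis was possible because each library is a separate mouse of 1 strain, and the title number does not name pairs of mice. The few reads behind miRNAs such as miR-12186-5p limit what can be said of them.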
